A study of Mus musculus with 12 samples.

Results

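The expression of 9 epithelial keratin genes was followed in whole mouse colon: the simple-epithelium keratins Krt7, Krt8, Krt18, Krt19, Krt20 and Krt23, and the keratins of stratified squamous epithelium Krt5, Krt13 and Krt14. They are 9 of the 54532 genes measured and were chosen by symbol. The data are polyA RNA-seq of 12 colon libraries in 4 groups of 3. The study asked how deletion of the innate sensor STING, encoded by Tmem173, in myeloid cells alters colitis caused by dextran sulfate sodium (DSS), a polymer in the drinking water that injures the colonic epithelium. Every mouse carried floxed Tmem173 alleles on a C57BL/6N background and received 5 tamoxifen injections. Tmem173fl/fl mice had no Cre (labelled WT), and Tmem173iΔmye mice also carried a tamoxifen-inducible Cre driven from Lyz2, a gene of macrophages, monocytes and neutrophils (labelled CRE). Untreated groups of both genotypes stood beside colitic groups given DSS for 7 days and then water for 1 day. The study's methods put the DSS at 2.5 to 3% and the mice at 6 to 8 weeks old. The colitic Tmem173iΔmye libraries are numbered 1, 2 and 5.

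Keratins form the intermediate filaments of epithelial cells, and each filament needs a type I and a type II partner. Simple epithelia such as the colonocyte layer build filaments mainly from the type II keratin Krt8 with the type I keratins Krt18, Krt19 and Krt20, whereas basal cells of skin, oesophagus and anal canal use Krt5 with Krt14, and Krt13 belongs to the upper layers of internal stratified epithelia. Krt20 rises as colonocytes differentiate toward the luminal surface, and mice without Krt8 are known to develop colitis.

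In GRCm38 coordinates of the deposited table, the members sit in 2 keratin clusters. The type I genes Krt20 (chr11:99428403-99438150), Krt23 (chr11:99477974-99493137), Krt13 (chr11:100117327-100121566), Krt19 (chr11:100140810-100148665) and Krt14 (chr11:100203162-100207548) all lie on the minus strand of chromosome 11. The type II genes Krt7 (chr15:101411043-101430313, plus strand), Krt5 (chr15:101707070-101712898, minus strand) and Krt8 (chr15:101996698-102004482, minus strand) lie on chromosome 15. Krt18 (chr15:102028180-102032027, plus strand) is the one type I gene outside its own cluster, and 23697 bases separate it from Krt8, which is transcribed in the opposite direction.

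The RefSeq promoter table (GRCm38.p6) held an entry for 8 of the 9 members. Sequence before the start is shown for Krt8 and Krt18, a pair that partner in filaments and moved together in these libraries, for Krt20, which fell with DSS in Tmem173fl/fl mice, and for Krt23, which did not. Each is written 5′ to 3′ on the gene's own strand and stops at or just before the start of the deposited gene model, with matches to TATAAA or CCACCC on either strand in capitals.

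Krt8 (chr15:102004483-102004592, minus strand): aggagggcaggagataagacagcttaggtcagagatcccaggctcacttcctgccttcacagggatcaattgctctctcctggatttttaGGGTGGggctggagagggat
Krt18 (chr15:102027966-102028179, plus strand): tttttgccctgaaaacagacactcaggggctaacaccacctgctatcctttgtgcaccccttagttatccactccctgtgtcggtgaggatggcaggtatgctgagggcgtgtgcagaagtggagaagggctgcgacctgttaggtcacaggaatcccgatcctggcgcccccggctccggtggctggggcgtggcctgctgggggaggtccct
Krt20 (chr11:99438154-99438403, minus strand): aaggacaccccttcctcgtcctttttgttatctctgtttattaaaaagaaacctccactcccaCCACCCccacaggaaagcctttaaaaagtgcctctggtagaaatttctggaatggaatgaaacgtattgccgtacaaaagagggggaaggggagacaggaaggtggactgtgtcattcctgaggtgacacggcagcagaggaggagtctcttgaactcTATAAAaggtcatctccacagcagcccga
Krt23 (chr11:99493138-99493370, minus strand): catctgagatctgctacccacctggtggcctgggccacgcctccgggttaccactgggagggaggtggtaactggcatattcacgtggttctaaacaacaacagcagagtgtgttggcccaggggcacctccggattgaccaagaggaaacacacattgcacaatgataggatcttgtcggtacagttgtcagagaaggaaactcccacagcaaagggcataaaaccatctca

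The 250 bases before the RefSeq start were searched on both strands for 4 motifs. These were TATAAA, the core of the box that positions many starts, CCACCC, a box bound by Klf and Sp factors, TGANTCA, the usual site of AP-1, and TTTATNG, the usual site of the intestinal Cdx factors. Krt20 held TATAAA 29 to 24 bases before the start, a motif present in 12.4% of 32851 promoter windows of the same length, and its TTTATNG match, found in 9.81% of windows, covers the same letters on the other strand. CCACCC matched once in Krt20 and at 2 places in Krt8, of which one lies beyond the stretch shown, and in 28.1% of all windows. The windows of Krt18 and Krt23 held none of the 4 motifs, and TGANTCA (6.75% of windows) matched in none of the 4 genes shown.

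The libraries held 13823237 to 18718915 counts. Levels of one gene between libraries are given as CPM (counts scaled to a common depth) scaled by the trimmed mean of M values (TMM), and levels between genes as the deposited FPKM, which also divides by transcript length. Tmem173 itself, whose deletion targets myeloid cells only, was not called between genotypes in whole colon, with 14.4 to 24.5 CPM in untreated Tmem173fl/fl, 14.6 to 21.3 in untreated Tmem173iΔmye, 37.7 to 44.0 in colitic Tmem173fl/fl and 23.8 to 47.8 in colitic Tmem173iΔmye colons. A list of 10 exocrine pancreas markers summed to between 43.5 and 9000 FPKM per library, with the highest sums in the colitic replicates 1 of both genotypes, and no gene of that list was called in a comparison. Their part in the keratin levels was not tested. By their sex-linked transcripts 3 libraries differed from the other 9, namely both untreated replicates 3 and colitic Tmem173iΔmye replicate 5. The last also stood apart in several keratins, so results that rest on it are given with and without it.

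Colon keratin expression was dominated by simple-epithelium members. By mean FPKM the order in all 4 groups was Krt8, Krt19, Krt20, Krt18, Krt7 and Krt23, and the ranges of neighbours in that order did not overlap in any group. In untreated Tmem173fl/fl colons Krt8 averaged 2587 ± 331 FPKM (SD, n = 3), the 7th highest of all 54532 genes. Krt19, a type I keratin with almost no tail domain, averaged 1283 ± 166 FPKM and ranked 19th, Krt20 averaged 699 ± 76.2 FPKM and ranked 37th, and Krt18 averaged 239 ± 31.1 FPKM and ranked 129th. Krt7, a type II keratin best known from ducts, averaged 14.1 ± 1.28 FPKM, and the type I keratin Krt23 averaged 2.17 ± 0.498 FPKM. Krt8 therefore supplied 99.4 to 99.5% of the simple type II FPKM of this group, while Krt19, Krt20 and Krt18 shared the type I side at 57.2 to 58.3%, 31.2 to 32.0% and 10.5 to 11.1%.

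The squamous members were close to the detection limit in every group. Their means were between 0.01 FPKM (Krt5, untreated Tmem173fl/fl) and 0.745 FPKM (Krt14, untreated Tmem173fl/fl), and among the 3 the ranges of neighbours mostly overlapped, except that Krt5 stood below the other two in both untreated groups. Of 14 markers of stratified squamous epithelium, 6 passed the filter on low values (at least 0.1 FPKM in at least 3 libraries), and Calml3, Flg and Sprr3 had 0 counts in all 4 groups. Summed over the list, the squamous markers ranged from 18.0 to 65.0 FPKM, carried mainly by Serpinb5, Ly6d and Pkp1.

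DSS lowered the abundant simple keratins in Tmem173fl/fl colons. Krt8 read 5678, 5506 and 4411 CPM in replicates 1 to 3 of the untreated group and 2164, 1534 and 2665 CPM in replicates 1 to 3 of the colitic group. All 3 colitic values lay below all 3 untreated values, a 2.34-fold fall (log2 fold change -1.22 ± 0.21 SE, adjusted p = 0.00144 by edgeR's quasi-likelihood test). With limma on log2(FPKM + 0.1) or log2(FPKM + 1) the fold change of Krt8 was -1.27 at adjusted p of 0.0525 and 0.0616, and the call was lost. Krt20 read 1475, 1471 and 1202 CPM untreated and 539.9, 404 and 731 CPM with DSS, again without overlap and 2.36-fold lower (-1.24 ± 0.22 SE, adjusted p = 0.00151). Krt19 read 2612, 2646 and 2067 CPM untreated and 1211, 829 and 1435 CPM with DSS, a 2.01-fold fall (-1.01 ± 0.21 SE, adjusted p = 0.00423) that sits at the fold threshold. Leaving out replicate 1 or 2 of the untreated group or replicate 2 of the colitic group took Krt19 to -0.95, -0.95 and -0.83, under that threshold, with adjusted p of 0.0183, 0.0187 and 0.00204.

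Krt18, the usual partner of Krt8, moved the same way by a smaller amount. It read 391, 368 and 299.9 CPM untreated and 189, 110.0 and 255 CPM with DSS, and the groups did not overlap. The fitted difference of -0.86 ± 0.26 SE had an adjusted p of 0.0282 but missed the threshold of 1 on the log2 scale. Without replicate 3 of the colitic group, the highest of the 3 colitic values, it was -1.19 and was called. Over all fits with 1 library left out it ranged from -1.19 to -0.62, with adjusted p from 0.00339 to 0.0845.

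Krt7 and Krt23 did not follow. Krt7 read 107, 108 and 91.0 CPM untreated and 83.3, 61.4 and 129.6 CPM with DSS, so that the untreated range lay inside the colitic one (-0.09 ± 0.23 SE, adjusted p = 0.797). Its fitted difference took the other sign without replicate 2 of the colitic group (0.11). Krt23 read 2.58, 3.86 and 4.01 CPM untreated and 3.58, 3.60 and 8.31 CPM with DSS (0.62 ± 0.38 SE, adjusted p = 0.237). The colitic replicate 3 set most of that difference, which was 0.09 without it.

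In all, 3 of the 6 simple keratins were called lower in this comparison, at an adjusted p under 0.05 and at least 1 on the log2 scale, where 7.61% of the 24102 genes tested were called lower and 22.5% were called in either direction. Counted by range alone, 4 of the 6 lay lower without overlap, against 25.4% of all genes. The median log2 fold change of the 6 was -0.93, beside 0.03 over all genes tested. With limma on log2(FPKM + 1) Krt20 was the 1 member called, and Krt19 also missed the fold threshold when counts were scaled by library totals (-0.88).

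**Figure D1:**
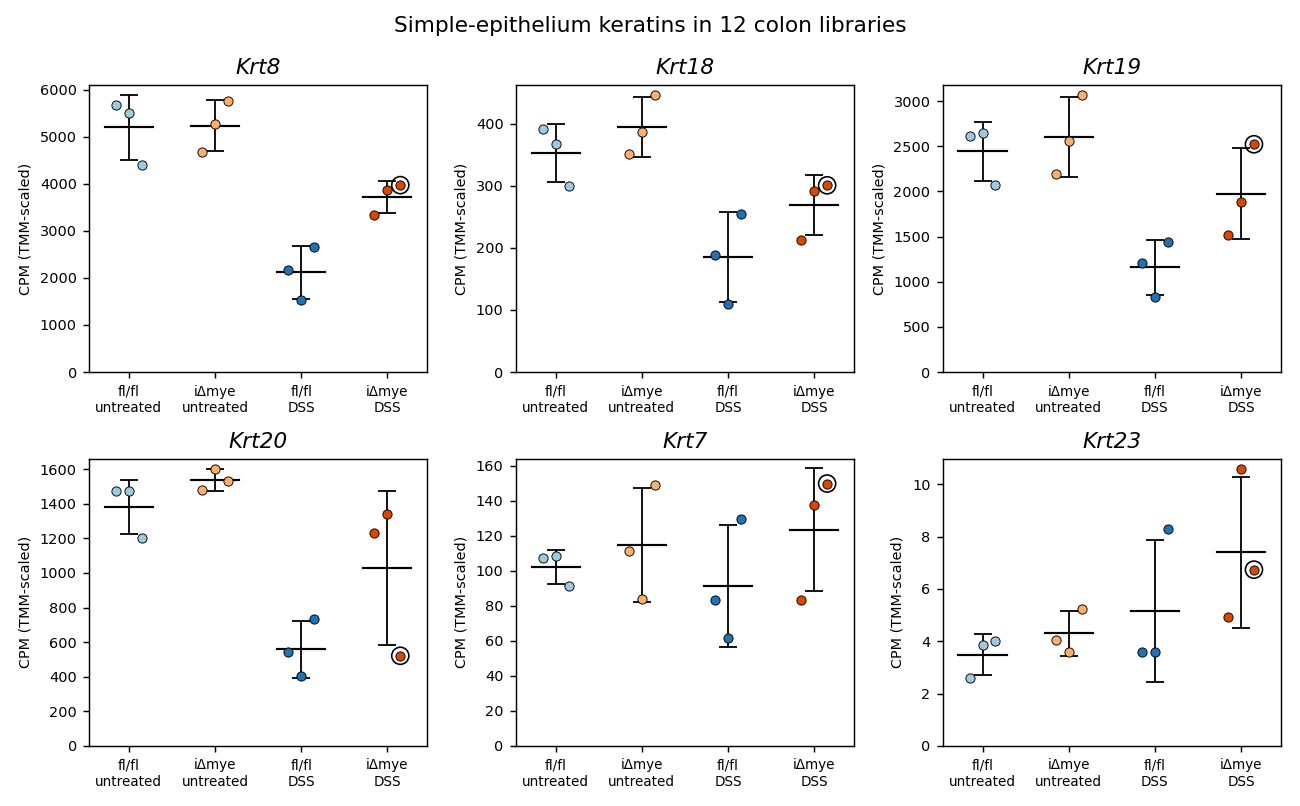
TMM-scaled CPM (vertical axis, from 0) of the 6 simple-epithelium keratins in each library; points are libraries, horizontal lines group means and bars 1 SD (n = 3 per group), and the ringed point is replicate 5 of the colitic Tmem173iΔmye group. Krt8, Krt18, Krt19 and Krt20 lie lower with DSS in Tmem173fl/fl mice without overlap, and the ringed library is highest of its group in Krt8, Krt18, Krt19 and Krt7 but lowest in Krt20.

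Krt5 went in the opposite direction at a very low level. It had 0, 1 and 0 counts in untreated Tmem173fl/fl libraries and 5, 11 and 10 counts in colitic ones. It had 1, 0 and 1 counts in untreated Tmem173iΔmye libraries and 7, 8 and 3 counts in colitic ones. Against a floor of 3 counts per untreated library, its mean CPM with DSS was at least 2.38-fold higher in Tmem173fl/fl colons and at least 2.17-fold higher in Tmem173iΔmye colons. The quasi-likelihood test called it higher in Tmem173fl/fl mice (adjusted p = 0.0130), as it did 14.9% of all genes, and not in Tmem173iΔmye mice (adjusted p = 0.198). Because Krt5 reached 0.1 FPKM only in colitic libraries, in 3 of 3 and 2 of 3, it entered the test through the group where it was high, and the call adds nothing to that filter.

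Krt13 and Krt14 overlapped between untreated and colitic libraries in both genotypes. Krt13 had 18, 3 and 13 counts in untreated and 10, 3 and 7 counts in colitic Tmem173fl/fl libraries, 14, 2 and 23 counts in untreated Tmem173iΔmye libraries and 4, 3 and 49 counts in colitic ones. Krt14 had 32, 9 and 16 counts in untreated and 19, 3 and 15 counts in colitic Tmem173fl/fl libraries, 9, 6 and 9 counts in untreated Tmem173iΔmye libraries and 2, 5 and 57 counts in colitic ones. The highest count of each gene over the 12 libraries came from replicate 5 of the colitic Tmem173iΔmye group. With DSS in Tmem173iΔmye mice, Krt13 was at 0.55 and Krt14 at 1.43 on the log2 scale. Without that library they were at -1.69 and -1.02. In Tmem173fl/fl mice with DSS, Krt13 was at -0.97 ± 0.74 SE and Krt14 at -0.83 ± 0.71 SE. Leaving out 1 library took these to between -1.44 and -0.37 and between -1.21 and -0.11. None of these differences was called.

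**Figure D2:**
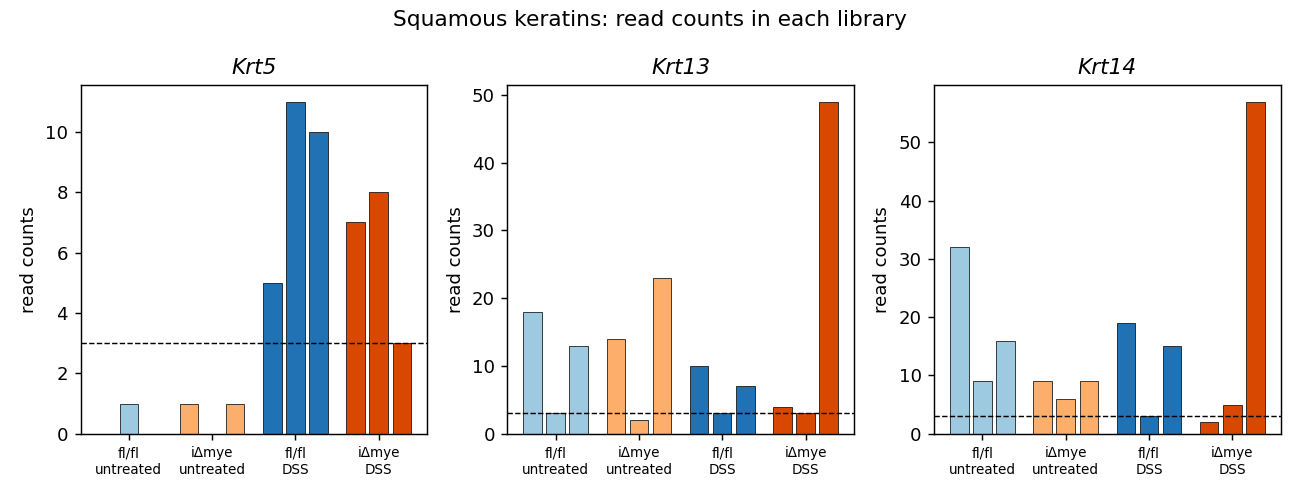
Read counts (vertical axis, from 0, with a different scale for each gene) of the squamous keratins Krt5, Krt13 and Krt14 in each of the 12 libraries, in replicate order within each group; the dashed line marks 3 counts. Krt5 is at 0 or 1 count in all 6 untreated libraries, and replicate 5 of the colitic Tmem173iΔmye group holds 49 counts of Krt13 and 57 counts of Krt14.

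In Tmem173iΔmye colons no keratin member was called with DSS, where 2.08% of the genes tested were called. Of the 6 simple keratins, 2 (Krt8 and Krt18) had an unadjusted p under 0.05 (15.6% of all genes), and DESeq2 and limma called no member. Krt5 also had one, but it passed the filter through colitic libraries alone. Krt8 read 4673, 5272 and 5759.6 CPM untreated and 3336, 3862 and 3973 CPM in colitic replicates 1, 2 and 5, without overlap and 1.41-fold lower (-0.49 ± 0.19 SE, adjusted p = 0.242). Krt18 read 350.5, 387 and 446 CPM untreated and 213, 292 and 301 CPM with DSS, also without overlap (-0.56 ± 0.21 SE, adjusted p = 0.237). Krt19 read 2192, 2553 and 3066 CPM untreated and 1519, 1886 and 2521 CPM with DSS, and the groups overlapped through replicate 5 alone (-0.40 ± 0.24 SE, adjusted p = 0.467). Krt19 was at -0.59 ± 0.19 SE without that library (adjusted p = 0.0951) and at -0.24 without colitic replicate 1.

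Krt20 differed among the colitic Tmem173iΔmye libraries. It read 1479, 1601 and 1533 CPM in the untreated group and 1232, 1339 and 521 CPM in colitic replicates 1, 2 and 5. Replicate 5 fell within the range of the colitic Tmem173fl/fl libraries, and replicates 1 and 2 lay below the untreated range but near it. The fitted difference was -0.58 ± 0.31 SE (adjusted p = 0.417), and -0.23 ± 0.17 SE without replicate 5 (adjusted p = 0.463). By range alone, 3 of the 6 simple keratins (Krt8, Krt18 and Krt20) lay lower without overlap, against 9.41% of all genes. Krt7 was at 0.10 (adjusted p = 0.902) and Krt23 at 0.78 (adjusted p = 0.332; 0.45 without colitic replicate 2), and the sign of Krt7 turned without replicate 5 or without untreated replicate 2.

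Between genotypes without DSS, none of the 9 members and none of the 24102 genes was called (0%). Krt14 alone among the members, at -1.44 ± 0.58 SE (adjusted p = 1), had an unadjusted p under 0.05, as did 2.99% of all genes. With replicate 1 of the Tmem173fl/fl mice left out it was at -0.73. DESeq2 called 3 genes in this comparison, none of them a member. The 6 simple keratins were between 0.02 (Krt8) and 0.31 (Krt23) on the log2 scale, and 1 of the 6, Krt20 at 1479 to 1601 CPM against 1202 to 1475, lay higher without overlap, as 3.66% of all genes did.

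Between genotypes with DSS, all 6 simple keratins had higher means in Tmem173iΔmye colons, and none was called, where 2.81% of the genes tested were called and 0.822% were called higher. At the unadjusted level 3 members had p under 0.05, against 20.2% of all genes, and DESeq2 and limma called none. Krt8 was 1.75-fold higher at 3336 to 3973 CPM against 1534 to 2665 (0.80 ± 0.26 SE, adjusted p = 0.137). Krt19 was at 0.76 ± 0.29 SE (adjusted p = 0.187), and like Krt8 it did not overlap between the groups. Krt20 was at 0.88 ± 0.37 SE (adjusted p = 0.237) and overlapped through replicate 5 alone. Higher without overlap were 2 of the 6 simple keratins and 12% of all genes. Without that library Krt20 was at 1.19 ± 0.26 SE (adjusted p = 0.0678) and Krt8 at 0.75 ± 0.27 SE (adjusted p = 0.197).

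The remaining simple keratins overlapped between the colitic genotypes. Krt18 was at 0.53 ± 0.30 SE (adjusted p = 0.368), Krt23 at 0.52 ± 0.43 SE (adjusted p = 0.538) and Krt7 at 0.42 ± 0.31 SE (adjusted p = 0.481). Leaving out 1 library took Krt18 to between 0.28 and 0.85 (colitic Tmem173fl/fl replicates 2 and 3 left out) and Krt23 to between 0.19 (without colitic Tmem173iΔmye replicate 2) and 1.05 (without colitic Tmem173fl/fl replicate 3). Krt7 lay between 0.22 and 0.77, again with colitic Tmem173fl/fl replicates 2 and 3 left out. The squamous members Krt13 (1.59 ± 1.03 SE), Krt14 (0.87 ± 1.09 SE) and Krt5 (-0.32 ± 0.65 SE) all changed sign without replicate 5, to -0.69, -1.62 and 0.024.

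**Figure D3:**
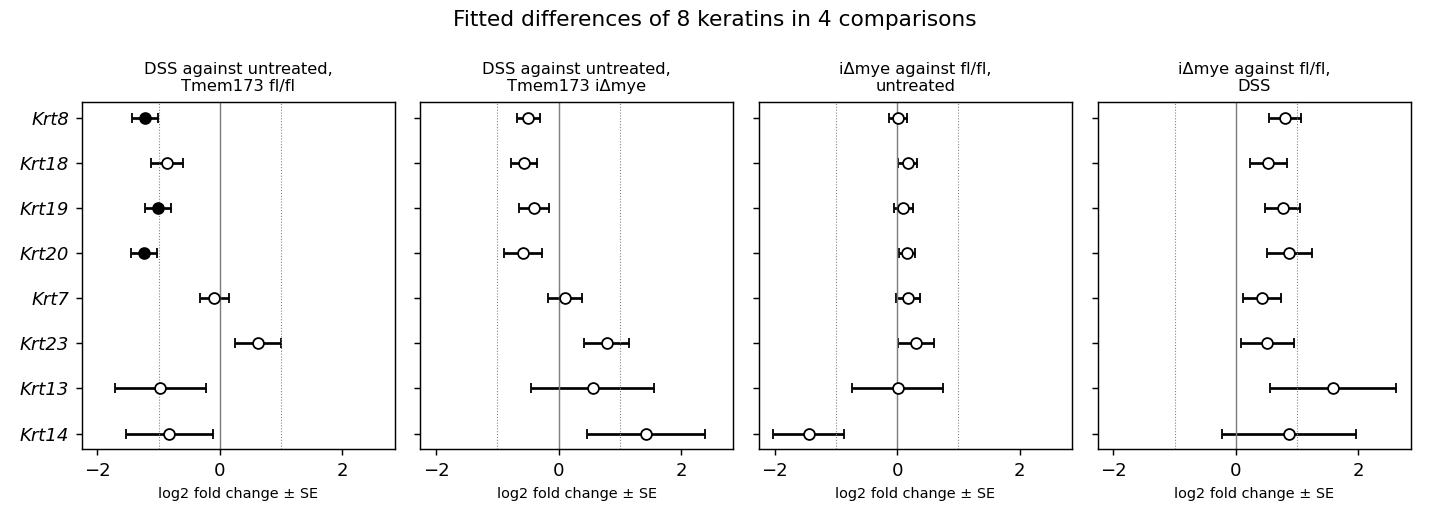
Fitted log2 fold changes (horizontal axis) with their SE for 8 keratins in 4 comparisons of 3 against 3 libraries; filled points are called, dotted lines mark 1 and -1, and Krt5 is left out because its untreated counts are at the floor. The 3 filled points are Krt8, Krt19 and Krt20 with DSS in Tmem173fl/fl mice, and the intervals of Krt13 and Krt14 are the widest.

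Whether the response to DSS differed between genotypes was tested as an interaction over all 12 libraries, and no member was called (2.55% of all genes were called). DESeq2 and limma called no member either. Krt8 alone had an unadjusted p under 0.05, against 18.1% of all genes. Its interaction term was 0.80 ± 0.29 SE (adjusted p = 0.162), and those of Krt20, Krt19 and Krt18 were 0.73 ± 0.42 SE (adjusted p = 0.380), 0.68 ± 0.34 SE (adjusted p = 0.308) and 0.38 ± 0.36 SE (adjusted p = 0.627). Among colitic Tmem173fl/fl libraries, leaving out replicate 2 took the Krt18 term to 0.047, the Krt19 term to 0.42 and the Krt20 term to 0.48, and leaving out replicate 3 took the Krt18 term to 0.66. The Krt19 term was 0.44 ± 0.31 SE and the Krt20 term 0.50 with colitic Tmem173iΔmye replicate 5 and replicate 2 left out, respectively. The Krt20 term was 1.03 ± 0.28 SE without replicate 5 of the colitic Tmem173iΔmye group (adjusted p = 0.0775). A call in one genotype and none in the other is thus not shown to be a difference between them.

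Of the 4 lists of cell type markers compared here, only the epithelial one fell with the simple keratins with DSS in Tmem173fl/fl mice. A list of 12 epithelial genes without keratins (Epcam, Cdh1, Vil1, Cldn3, Cldn7, Lgals4, Cdx1, Cdx2, Tspan8, Elf3, Esrp1 and Phgr1) had a median of -0.93 with DSS in Tmem173fl/fl mice, the same to 2 decimals as the simple keratins. Of the 12, 4 were called lower (7.61% of all genes) and none higher, among them the adhesion proteins Epcam (-1.21 ± 0.21 SE, adjusted p = 0.00137) and Cdh1 (-1.26 ± 0.21 SE, adjusted p = 0.00124), while the tight junction gene Cldn7 was at -0.86 and the lectin Lgals4 at -0.48. The 6 fibroblast markers all rose (14.9% of all genes were called higher) and summed to 1017 to 1275 FPKM against 144 to 173 in untreated libraries and 296 to 416 in colitic Tmem173iΔmye libraries. Of 6 leukocyte markers 2 rose, with sums of 138 to 228 against 93.1 to 129.9 FPKM. Of 7 markers of mesothelium, a lining that also expresses simple keratins, 5 rose, among them Msln (2.29 ± 0.55 SE, adjusted p = 0.00926) and Upk1b (1.84 ± 0.32 SE, adjusted p = 0.00147), and the most abundant, Cldn15, fell (-1.11 ± 0.32 SE, adjusted p = 0.0207). Their sum was 21.9 to 51.9 FPKM with DSS against 37.7 to 69.5 untreated, and their part in the levels of Krt7 and the other keratins was not tested. No gene of these 4 lists was at 0 counts in a group. Between colitic genotypes the epithelial list moved with the simple keratins as well. Of its 12 genes 11 were above 0 (median 0.83, beside 0.02 over all genes). The transcription factor Elf3 was the 1 called higher (1.01 ± 0.21 SE, adjusted p = 0.0450), where 0.822% of all genes were called higher. The sums were 3098 to 4131 FPKM in Tmem173iΔmye against 1646 to 2787 in Tmem173fl/fl libraries. In the interaction its median was 0.81, beside 0.04 over all genes, with Elf3 and Cdh1 called, where 2.55% of all genes were. In bulk colon, fewer epithelial cells and less keratin RNA per cell cannot be told apart.

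Set over the geometric mean of those 12 epithelial genes in the same library, the keratins parted. The ratio of Krt8 was 11.07, 11.05 and 9.92 in untreated and 8.63, 8.10 and 8.44 in colitic Tmem173fl/fl libraries, a lower range without overlap (ratio of means 0.786). The ratio of Krt20 was 2.922, 2.999 and 2.748 untreated and 2.19, 2.17 and 2.35 with DSS, also without overlap (ratio of means 0.774). Of all genes tested, 4.15% were lower without overlap on this scale. Krt7 and Krt23 were higher without overlap, by ratios of means of 1.69 and 2.74, a direction shared by 52% of all genes. Krt18 and Krt19 overlapped. These ratios depend on which genes make up the list, because its genes fell unequally with DSS in Tmem173fl/fl mice. Lgals4 was at -0.48 on the log2 scale, whereas Epcam (-1.21) and Cdh1 (-1.26) fell about as much as Krt8 (-1.22) and Krt20 (-1.24). A fall of Krt8 or Krt20 beyond that of the epithelium is therefore not shown.

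In Tmem173iΔmye colons the same ratios spread more widely with DSS. Krt8 was at 9.28, 8.28 and 10.4 times the epithelial level in colitic replicates 1, 2 and 5 and overlapped the untreated range of 9.79 to 10.8. Krt20 was at 3.48, 2.92 and 1.38 times the epithelial level, the lowest value of the 12 libraries being that of replicate 5. Krt23 was higher without overlap here as well (ratio of means 2.12, a direction shared by 22% of all genes).

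**Figure D4:**
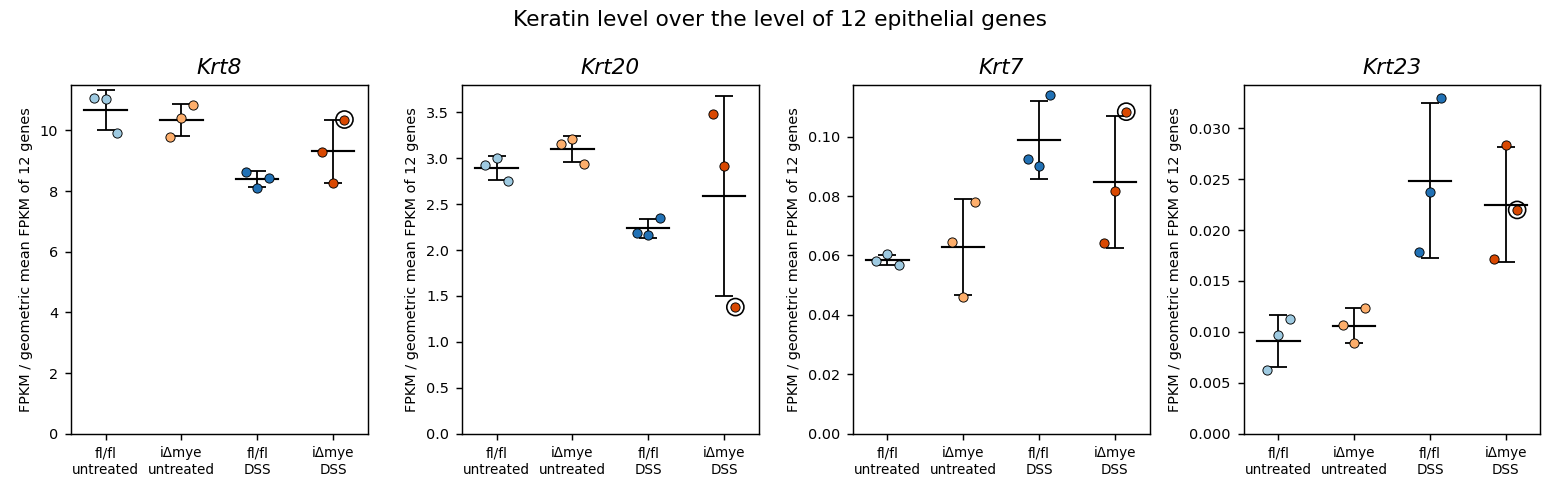
FPKM of Krt8, Krt20, Krt7 and Krt23 divided by the geometric mean FPKM of 12 epithelial genes in the same library (vertical axis, from 0); points are libraries, lines group means, bars 1 SD (n = 3), and the ring marks replicate 5 of the colitic Tmem173iΔmye group. In Tmem173fl/fl mice Krt8 and Krt20 lie lower with DSS and Krt7 and Krt23 higher, and the ringed library has the lowest Krt20 ratio of the 12.

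Proportions between the abundant keratins were compared within each library. Krt20 over Krt8, both in FPKM, was 0.264 to 0.277 in untreated and 0.254 to 0.279 in colitic Tmem173fl/fl libraries. In the same Tmem173fl/fl libraries Krt19 over Krt8 was 0.485 to 0.507 untreated and 0.568 to 0.591 with DSS, so that Krt19 fell less than Krt8. Krt20 over Krt19 was 0.535 to 0.560 untreated and 0.429 to 0.490 with DSS, also without overlap. In Tmem173iΔmye libraries both ratios overlapped. There Krt19 over Krt8 was 0.495 to 0.562 untreated and 0.481 to 0.670 with DSS. Krt20 over Krt19 was 0.481 to 0.650 untreated and 0.199 to 0.781 with DSS, and its lowest untreated value lay within the colitic Tmem173fl/fl range. The summed simple type I over type II FPKM was 0.839 to 0.866 in untreated Tmem173fl/fl, 0.914 to 0.932 in untreated Tmem173iΔmye, 0.928 to 0.969 in colitic Tmem173fl/fl and 0.899 to 0.964 in colitic Tmem173iΔmye libraries. The untreated Tmem173fl/fl libraries thus lay below those of the other 3 groups. For untreated Tmem173iΔmye over untreated Tmem173fl/fl the ratio of means was 1.08, and no member was called between these groups. No share over all genes was set beside this ratio. All 9 members together took 0.783 to 0.956% of the counts of untreated Tmem173fl/fl libraries, 0.332 to 0.555% of colitic ones and 0.649 to 0.750% of colitic Tmem173iΔmye ones.

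Replicate 5 of the colitic Tmem173iΔmye group had a different type I make-up. Krt20 made up 14.7% of its simple type I FPKM, against 26.3 to 39.7% in the other 11 libraries, and Krt19 made up 73.7%, against 50.9 to 61.2%. It also held the highest counts of Krt36 (150), Krt84 (116) and Krt90 (138), keratins outside the 9 named after their values were seen, and the highest sum of the squamous markers at 65.0 FPKM. Its surface colonocyte markers summed to 2459 FPKM, against 5318 and 4132 in the other colitic Tmem173iΔmye libraries, while its 12 epithelial genes summed to 3991 against 3098 and 4131. This library also has the sex-linked pattern described above, as do the untreated replicates 3, where Krt20 made up 32.0 and 28.8% of simple type I FPKM. The part of these features in its keratin levels was not tested.

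**Figure D5:**
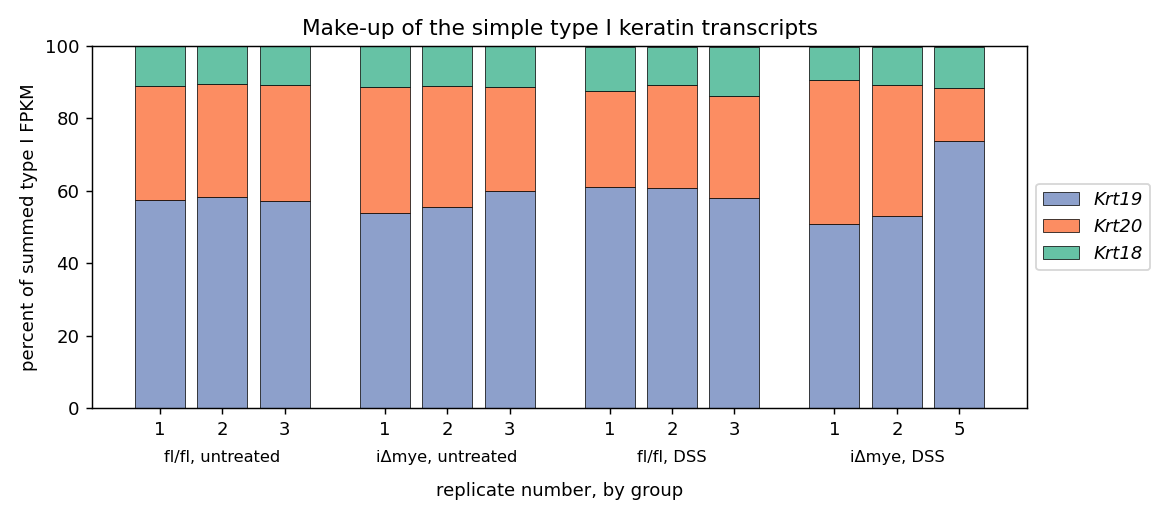
Share (vertical axis, percent) of Krt19, Krt20 and Krt18 in the summed FPKM of the simple type I keratins, 1 bar per library in its group; Krt23, under 1%, fills the thin gap at the top. Krt20 takes 14.7% in replicate 5 of the colitic Tmem173iΔmye group and 26.3 to 39.7% in the other 11 libraries.

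Across the 12 libraries, Krt8 was most like Krt19 and Krt18 among the members, with Pearson's r of log2(CPM + 1) of 0.97 and 0.96, followed by Krt20 at 0.86 and Krt7 at 0.53, while Krt23 was at -0.10. Among 14550 other genes the most similar to Krt8 were Dok4, Tmem30b and Ptpn3 (r = 0.988, 0.982 and 0.980). Those of Krt18 were Lgals3, Ngef and Sgsm3, those of Krt19 included Ovol2 and Spint2, and those of Krt20 were Lrrc66, Fer1l6 and Upk1a, with r between 0.966 and 0.981. For Krt7 they were R3hdm4, Pgd and Magi1 and for Krt23 Gm25301, Nr1h4 and Etl4, at r between 0.843 and 0.907. Krt13 and Krt14 correlated at 0.83. These values describe 12 libraries in 4 groups, which share the change with DSS, and for the squamous members they rest on few counts.

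Genes that anchor or associate with keratin filaments, most of them desmosomal, changed unevenly. With DSS in Tmem173fl/fl mice, 5 of 14 were called lower and 1 higher (median -0.41), beside 7.61% and 14.9% of all genes. The most abundant, the desmosomal linker Dsp (-0.42 ± 0.24 SE), the plakoglobin gene Jup (-0.38 ± 0.20 SE) and the desmosomal cadherin Dsg2 (-0.49 ± 0.21 SE), were not called, and the cadherin Dsc2 fell (-1.01 ± 0.25 SE, adjusted p = 0.0108). In Tmem173iΔmye mice with DSS 1 was called lower and none higher, where 2.08% of all genes were called, and between colitic genotypes 1 was called higher in Tmem173iΔmye mice (0.822% of all genes).

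Of 13 other intermediate filament genes, nuclear lamins included, 8 rose, 1 fell and 4 were below 0 without a call with DSS in Tmem173fl/fl mice (median 1.27), where 14.9% of all genes were called higher and 7.61% lower. Vim, the vimentin of mesenchymal cells, rose (1.55 ± 0.15 SE, adjusted p = 3.59e-05), Des, the desmin of muscle, was at -0.50 and the lamin gene Lmna at -0.90 without a call, and Lmnb1, a nuclear lamin, fell (-1.07 ± 0.12 SE, adjusted p = 0.000108). In Tmem173iΔmye mice with DSS, 1 rose and 1 fell, where 2.08% of all genes were called. Between colitic genotypes, 3 were called lower in Tmem173iΔmye mice and none higher (2.81% of all genes were called in either direction), Vim among them at -1.01 ± 0.21 SE (adjusted p = 0.0414).

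Of 10 markers of surface colonocytes, the cells in which Krt20 is known to be highest, 6 were called lower and 2 higher with DSS in Tmem173fl/fl mice (median -1.41), beside 7.61% and 14.9% of all genes. The membrane mucin Muc3 (-1.92 ± 0.21 SE) and the carbonic anhydrase Car4 (-2.05 ± 0.17 SE) fell, Car1, another carbonic anhydrase, rose (1.63 ± 0.32 SE), and Guca2a, which encodes guanylin, was at -0.72 without a call. Between colitic genotypes 4 of the 10 were called higher in Tmem173iΔmye mice (0.822% of all genes) and none lower, including Muc3 (1.42 ± 0.28 SE, adjusted p = 0.0371) and Car4 (2.10 ± 0.32 SE, adjusted p = 0.0185).

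Beyond the 9, the table held 44 other protein-coding keratins, of which 10 had 0 counts in every library and 15 passed the filter. Of these 15, 4 were called in at least 1 comparison, where 22.5% of all genes were called with DSS in Tmem173fl/fl mice alone. Krt17, a keratin of stressed and appendage epithelia, had 39, 59 and 60 counts in untreated and 4, 10 and 8 counts in colitic Tmem173fl/fl libraries, a fall without overlap, as in 25.4% of all genes (-3.04 ± 0.41 SE, adjusted p = 0.000327). It fell in Tmem173iΔmye mice too (-2.60 ± 0.43 SE, adjusted p = 0.0157). Krt80 rose with DSS in Tmem173fl/fl mice from 35, 57 and 35 counts to 167, 152 and 97 (1.46 ± 0.28 SE, adjusted p = 0.00259), and Krt222 from 19, 19 and 20 counts to 49, 93 and 51 (1.47 ± 0.32 SE, adjusted p = 0.00571). Krt84, a hair and tongue keratin, rose in Tmem173iΔmye mice from 12, 15 and 12 counts to 56, 49 and 116 in replicates 1, 2 and 5 (2.57 ± 0.44 SE, adjusted p = 0.0183).

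Several members share sequence or position with other annotated genes. The pseudogene Krt8-ps took 0.0953 to 0.171% of the reads assigned to it and Krt8 together. Krt8, Krt7 and Krt5 overlap the annotated genes Gm36026, Gm671 and Gm44323, and whether counting used strand is not given in the sources used here, so reads of each pair may not be told apart. The deposited length of Krt7 is 7049 bases, against 1437 to 2197 for the other 8, which lowers its FPKM relative to theirs but not its CPM.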

How the data were processed

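PolyA RNA was sequenced in 12 colon libraries, 3 per group. Per the submitters' processing notes, CASAVA 1.8, fastp, HISAT2 2.0.5, featureCounts 1.5.0-p3 and DESeq2 1.20.0 were used with GRCm38 (mm10); use of strand is not given in the sources used here. The deposited table holds gene counts, made by the authors from whole reads and not normalized. It also holds FPKM, which the authors scaled by depth and by the deposited gene length. Its 25 columns of group means, fold changes and p-values of the authors' own comparisons were not used.

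Genes with at least 0.1 FPKM in at least 3 of 12 libraries (24102) were tested on counts with edgeR 4.0.16 (R 4.3.3; TMM scaling, quasi-likelihood, Benjamini-Hochberg over all of them), fitting only the compared groups, or all 12 libraries for the interaction. A gene was called at an adjusted p under 0.05 with a log2 fold change of 1 or more in size. The SE is the fitted log2 fold change divided by the square root of F. The code was tested on simulated data.

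Members and gene lists were chosen with earlier results of these data known. Text names all 9 members, other keratins called in at least 1 comparison, the 3 genes most alike each member, and up to 4 genes per list by highest mean FPKM; 1 gene this rule names is not reported here. Alternatives were DESeq2 1.42.0, limma 3.58.1 on log2(FPKM + 0.1) or log2(FPKM + 1), other scalings and filters, a sex-linked covariate, leaving out each library, and a block for replicate number. The labels do not say that replicates are separate mice. Sex-linked transcripts differed within both untreated groups and the colitic Tmem173iΔmye group, so the libraries of each of these came from more than 1 mouse. The p-values measure the spread between libraries, which may in part be technical. Libraries of 1 group differed beyond sampling noise. Counts of 3 or fewer per library were read as the floor; this covers counting error only.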

Additional observations from a re-analysis of the deposited data

How the results depend on the processing

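The calls of Krt8 and Krt20 with DSS in Tmem173fl/fl mice held with every library left out in turn, Krt8 between -1.44 and -1.06 and Krt20 between -1.50 and -1.07. The number of members called there was 4, of which 1 is Krt5, whose call adds nothing to the filter it passed, and it ranged from 3 to 5 with a library left out and was 1 with limma on log2(FPKM + 1), where Krt8 (-1.27, adjusted p = 0.0616) and Krt19 (-1.05, adjusted p = 0.0507) missed the adjusted p and Krt5 (0.28) the fold threshold. Krt8 also missed it with limma on log2(FPKM + 0.1) (adjusted p = 0.0525). Scaling by library totals, which puts the median of all genes at 0.165, took Krt19 to -0.88 and Krt7 to 0.036. Filtering by expression with edgeR's own rule left Krt5 untested, and the other squamous members in part.

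Replicate numbers did not pair the libraries: the correlation of deviations of libraries with the same number lay between -0.195 and 0.211. With the replicate block, 1 member was called between colitic genotypes, Krt20 at 1.45 (adjusted p = 0.0272), and over all genes the calls were 1369 in place of 501 with DSS in Tmem173iΔmye mice and 94 in place of 0 between untreated genotypes. The block changed no other call of a member.

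Reversed signs concerned values without a call. With DSS in Tmem173iΔmye mice, Krt13 was at -0.76 with the replicate block and -0.10 with the sex-linked covariate, and Krt14 at -0.96 with the block. Between untreated genotypes, Krt13 was at -0.0039 with DESeq2, -0.088 and -0.0083 with limma, -0.0065 in one fit of 12 libraries, -0.076 with the block and -0.10 with the covariate. Between colitic genotypes with the block, Krt5 was at 0.34, Krt13 at -0.39 and Krt14 at -0.97, and with the covariate Krt13 was at -0.57 and Krt14 at -1.48. The interaction of Krt13 was -0.14 with the block. With a library left out, ranges crossing 0 were -0.45 to 0.11 for Krt7 with DSS in Tmem173fl/fl mice; -0.078 to 0.36 for Krt7, -1.69 to 1.25 for Krt13 and -1.02 to 1.95 for Krt14 with DSS in Tmem173iΔmye mice; -0.087 to 0.097 for Krt8, -0.059 to 0.36 for Krt7, -0.034 to 0.21 for Krt19 and -0.68 to 0.61 for Krt13 between untreated genotypes; -0.60 to 0.024 for Krt5, -0.69 to 2.10 for Krt13 and -1.62 to 1.38 for Krt14 between colitic genotypes; and -0.019 to 0.58 for Krt7, -0.12 to 0.73 for Krt23, -0.69 to 2.29 for Krt13 and -0.17 to 2.84 for Krt14 in the interaction. The cause was not tested.

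Counts of calls over all genes, chosen as a measure after seeing the data, also moved. With DSS in Tmem173fl/fl mice they were 8544 by adjusted p alone and 2848 with limma on log2(FPKM + 1), beside 5422. With DSS in Tmem173iΔmye mice (501) they were 1013 without a filter, 1137 with DESeq2, 62 and 58 with limma, 981 in one fit of 12 libraries and 51 to 1469 with a library left out. Between colitic genotypes (678) they were 1257, 1619, 140 and 154, 1492, and 27 to 1593 in the same order, and in the interaction (614) 1228 without a filter, 1365 with DESeq2 and 267 to 1728 with a library left out. Between untreated genotypes 68 genes were called without a filter, 3 with DESeq2 and 0 to 6 with a library left out.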
